A study of Equus caballus with 26 samples.

Results

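Genes that blood platelets and their parent cells, the megakaryocytes, are known for were followed in horse blood before and after an endurance ride: *PPBP*, *ITGA2B*, *ITGB3*, *GP9*, *GP1BA*, *TUBB1*, *TREML1*, *GP6* and *F13A1*. These 9 genes were listed by name, and they are 9 of the 24415 gene names on the array. Of these, 6 (*ITGA2B*, *GP9*, *GP1BA*, *TUBB1*, *TREML1* and *F13A1*) had a signal well above background on each of the 26 arrays. The other 3 (*PPBP*, *ITGB3* and *GP6*) were mostly at background and entered no test.

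RNA of whole blood drawn into PAXgene tubes was hybridised to Agilent custom equine arrays of 1 colour, 1 array a sample, for 26 samples of 23 horses. T0 is the sample at rest before a 160 km endurance ride and T1 the sample taken after it. The experimental set, which the labels call training, held 3 geldings (horses 2, 32 and 41), each measured at T0 and at T1. The validation set held 7 horses measured at T0 only (3 females and 4 geldings) and 13 other horses measured at T1 only (3 females and 10 geldings), so that in this set the time point was compared between different animals. The study describes the animals as pure or half-bred Arabians, whereas the breed entry of the labels names no breed. By the study's methods, the horses sampled at T1 had finished the ride, whereas many validation horses sampled at T0 were later eliminated by the veterinary checks, so that in the validation set time point and outcome of the ride cannot be told apart.

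Megakaryocytes in the bone marrow shed platelets, which have no nucleus and carry a stock of RNA from the parent cell. At a damaged vessel, the glycoprotein Ib-IX-V complex (*GP1BA*, *GP9*) holds platelets on von Willebrand factor, glycoprotein VI (*GP6*) recognises collagen, and the integrin of the αIIb (*ITGA2B*) and β3 (*ITGB3*) chains binds fibrinogen and joins platelets together. *TUBB1* encodes the β1-tubulin of the ring of microtubules under the platelet membrane, *TREML1* a receptor of the alpha granule membrane, *PPBP* a chemokine precursor of the alpha granules, and *F13A1* the A subunit of clotting factor XIII, which monocytes are also known to make.

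The probes that stand for these genes set what could be measured, and those on which the results turn are given here from the scanner files, 5′ to 3′, with positions in EquCab1, the build that the array's grid names. *TUBB1* had 5 probes that overlap by all but a few bases, and the brightest lay at chr22:45459969-45460028 on the plus strand. *ITGA2B* had a single probe whose ends lie 835 bases apart at chr11:17967155-17967989 (plus strand), so that its 60 bases join separate stretches of the genome. *GP1BA* had a single probe at chr11:48395216-48395276 (minus strand), filed under a gene number and described on the array as an uncharacterized protein. The brightest of the 5 overlapping probes of *PPBP* lay at chr3:37514088-37514147 (plus strand) and that of *ITGB3* at chr11:15988896-15988955 (minus strand). Capitals mark, for *TUBB1*, *PPBP* and *ITGB3*, the bases shared by all 5 probes of the gene (50, 56 and 56 bases), and for *ITGA2B* the 15 bases of the membrane-proximal motif common to integrin alpha chains, which is followed by the end of the coding sequence. No base of the *GP1BA* probe is marked.
TUBB1: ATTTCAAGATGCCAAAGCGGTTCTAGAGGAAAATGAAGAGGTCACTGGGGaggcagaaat
ITGA2B: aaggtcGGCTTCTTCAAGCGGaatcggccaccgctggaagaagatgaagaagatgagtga
GP1BA: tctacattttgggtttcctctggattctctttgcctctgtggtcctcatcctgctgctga
PPBP: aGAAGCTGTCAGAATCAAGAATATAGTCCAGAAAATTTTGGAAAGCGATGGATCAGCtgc
ITGB3: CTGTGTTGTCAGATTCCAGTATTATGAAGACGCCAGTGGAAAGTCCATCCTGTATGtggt

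The remaining members were read by single probes for *GP9* (chr16:1661540-1661599, minus strand), *TREML1* (chr20:33990354-33990413, minus strand) and *GP6* (chr10:19029888-19030801, minus strand, with ends 914 bases apart), and by 3 probes for *F13A1*, the brightest at chr20:6082004-6082063 on the minus strand. The GC content of the brightest probes was highest for *TREML1* (55.0%) and *GP9* (53.3%). By source, 3 members were found by the gene name of the array, 3 through the study's additional files (among them *GP9*, which the array describes as platelet glycoprotein IX-like) and 3 through the gene number in a RefSeq table.

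A level is given below as the log2 of the probe's processed signal minus the 75th percentile of its array. A level of 0 is as bright as that percentile, and a difference of 1 is a doubling. Levels were not compared between genes, because each probe binds with its own strength. Whole blood is a mixture, and for every value below fewer platelets and less RNA per platelet cannot be told apart.

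Across the arrays, no value of the 9 members was saturated (0 of 234), and between 60.2% and 75.3% of all probes were well above background. The array of validation horse 34 at T1 was scanned in a single pass and stood apart in its signal range, and results that change without it are named where they arise. Markers of the other blood cells also moved: at T1 in the validation set (limma) 8 of 10 neutrophil markers were higher and none lower, 12 of 13 T cell and 7 of 8 B cell markers were lower and none higher, 6 of 15 monocyte markers were higher (1 of them, *MARCO*, above background in 3 of 7 horses at T0) and 3 lower, and 1 of 5 red cell markers was higher. Over all gene names in that set 20.3% were higher and 23.9% lower, and the red cell count and the lower monocyte count lay near these shares. Summed over its list, the neutrophil signal lay between 7.16 and 9.44 at T0 and between 8.79 and 10.83 at T1 in the validation set, the T cell signal between 4.81 and 6.01 and then between 4.17 and 5.08, and the red cell signal between 3.66 and 8.35 and then between 5.42 and 9.80. The part of these shifts in the platelet values was not tested.

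None of the 6 measurable platelet genes passed the test between T1 and T0 in either set. In the experimental set 0 of the 6 passed, where 10.1% of 17490 gene names did, 6.16% higher and 3.95% lower at T1 (limma with the horse as a block, adjusted p under 0.05), and 2 of the 6 had an unadjusted p under 0.05, where 29.8% of all gene names had. The 1768 gene names that passed there became 239 without horse 2, 690 without horse 32 and 3169 without horse 41, and 0 members passed in each case. In the validation set 0 of the 6 passed, where 44.2% of 17405 gene names did, 20.3% higher and 23.9% lower (limma), and none had an unadjusted p under 0.05, where 50.9% of all gene names had. The median change of the 6 was 0.43 in the experimental set and 0.45 in the validation set, beside medians of 0.03 and -0.07 over all gene names. The intervals below show what changes these data leave room for.

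*TUBB1*, the tubulin of the platelet's marginal band, was at -1.49, 0.19 and -1.93 at T0 and at -0.34, 0.36 and -0.50 at T1 in experimental horses 2, 32 and 41. It was higher at T1 in all 3 horses, and horse 32 stood well above the others at T0 and barely moved. The change was 0.92 (SE 0.36, 95% interval 0.11 to 1.73, limma, adjusted p = 0.127). In the validation set it ran from -2.35 through a median of -1.68 to -0.72 at T0 and from -3.33 through -0.85 to 0.23 at T1. At T1, 5 of the 13 horses lay above the highest T0 horse and 1, horse 4, lay below the lowest. The difference was 0.64 (SE 0.38, interval -0.14 to 1.42, limma, adjusted p = 0.178), and without horse 4 it was 0.83 and passed (adjusted p = 0.0290), whereas the adjusted p ran from 0.102 to 0.307 in the other alternatives.

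*TREML1*, the alpha granule receptor, was at -3.04, -3.47 and -3.20 at T0 and at -2.82, -2.75 and -2.55 at T1 in horses 2, 32 and 41. All 3 horses were higher at T1 and the T0 and T1 values did not overlap, as was so for 35.5% of all gene names in this set of 3 horses. The change was 0.53 (SE 0.32, interval -0.19 to 1.25, limma, adjusted p = 0.293). The validation horses ran from -4.09 through -3.79 to -2.74 at T0 and from -3.94 through -3.17 to -2.32 at T1. The groups overlapped, and 2 T1 horses lay above the highest T0 horse. The difference was 0.46 (SE 0.23, interval -0.02 to 0.93, limma, adjusted p = 0.110). It passed with quantile normalization (0.58, adjusted p = 0.0461) and without validation horse 47 at T0 (0.61, adjusted p = 0.0273), and its adjusted p ran from 0.0540 to 0.217 in the other alternatives. *GP9*, *GP1BA*, *ITGA2B* and *F13A1* passed in none of the alternatives. The leaving out of each validation horse in turn was, but for horses 34 and 47, added after the values had been seen.

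*GP9*, a small subunit of the receptor for von Willebrand factor, was at 0.25, -1.03 and -1.03 at T0 and at 0.86, 0.25 and -0.47 at T1 in horses 2, 32 and 41. It was higher at T1 in all 3 horses, with overlapping values. The change was 0.82 (SE 0.33, interval 0.08 to 1.56, limma, adjusted p = 0.134). The validation horses ran from -2.78 through -1.03 to 0.16 at T0 and from -3.62 through -0.63 to 0.86 at T1. The lowest T1 value, that of horse 19, was below every T0 horse, and 2 T1 horses were above them all. The difference was 0.45 (SE 0.45, interval -0.49 to 1.39, limma, adjusted p = 0.447), and with the scan day as a further term it was -0.01. With a horse left out it ran from 0.19 (horse 47 at T0) to 0.69 (horse 19 at T1).

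*GP1BA*, the subunit of the same complex that binds von Willebrand factor, was at -0.92, -1.56 and -1.92 at T0 and at -1.46, -1.10 and -0.84 at T1 in horses 2, 32 and 41. It was lower at T1 in horse 2 and higher in the other 2. The change was 0.34 (SE 0.38, interval -0.53 to 1.20, limma, adjusted p = 0.591) and -0.04 without horse 41. Validation values ran from -2.22 through -1.70 to -0.90 at T0 and from -2.20 through -1.21 to -0.65 at T1. At T1, 3 of the 13 horses lay above the highest T0 horse. The difference was 0.32 (SE 0.24, interval -0.17 to 0.82, limma, adjusted p = 0.288).

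*ITGA2B*, the αIIb chain of the fibrinogen receptor, was at -1.87, -1.61 and -2.25 at T0 and at -1.62, -1.92 and -2.35 at T1 in horses 2, 32 and 41. These values moved by less than the spread between the horses, upwards in 1 and downwards in 2. The change was -0.06 (SE 0.32, interval -0.78 to 0.66, limma, adjusted p = 0.922), and its sign turned with normexp (0.05), quantile normalization (0.01), the series values (0.05) and a horse left out (up to 0.07). Validation values ran from -3.52 through -2.73 to -1.66 at T0 and from -3.35 through -2.68 to -1.35 at T1. Only horse 17 at T1 lay above the range of T0. The difference was 0.07 (SE 0.27, interval -0.49 to 0.62, limma, adjusted p = 0.862), and its sign turned without horse 40 at T0 (-0.09) and without horse 17 at T1 (-0.03).

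*F13A1*, the clotting factor XIII subunit, was at -0.46, 0.36 and -2.47 at T0 and at -0.76, -1.60 and -2.36 at T1 in horses 2, 32 and 41. It was lower at T1 in 2 of the 3 horses, and most of the difference lay in horse 32. The change was -0.72 (SE 0.43, interval -1.70 to 0.26, limma, adjusted p = 0.298). In the validation set it ran from -4.23 through -3.16 to -1.21 at T0 and from -4.45 through -2.63 to -1.16 at T1. The T1 range reached past the T0 range at both ends, by 1 horse each. The difference was 0.52 (SE 0.43, interval -0.37 to 1.42, limma, adjusted p = 0.347), and it ran from 0.33 without horse 40 at T0 to 0.84 without horse 29 at T0. At T0 the mean of *F13A1* was -0.86 ± 1.46 (SD, n = 3) in the experimental set and -3.10 ± 1.04 (SD, n = 7) in the validation set, a gap between the sets at rest that was not tested. Of the 15 monocyte markers 3 passed as lower and 6 as higher in the validation set, and 2 as lower and 6 as higher in the experimental set. Without *MARCO* 5 were higher in each set, and in the experimental set *MARCO* was above background in 0 of 3 horses at T0 and 3 of 3 at T1. Over all gene names 20.3% were higher and 23.9% lower in the validation set, and 6.16% and 3.95% in the experimental set. The scavenger receptor *CD163*, 1 of the higher markers, rose by 4.19 in the validation set (limma, adjusted p = 3.33e-06). The median change of the 15 monocyte markers there was 0.23, and 6 of them did not pass. The part of monocytes in the values of *F13A1* was not tested.

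**Figure D1:**
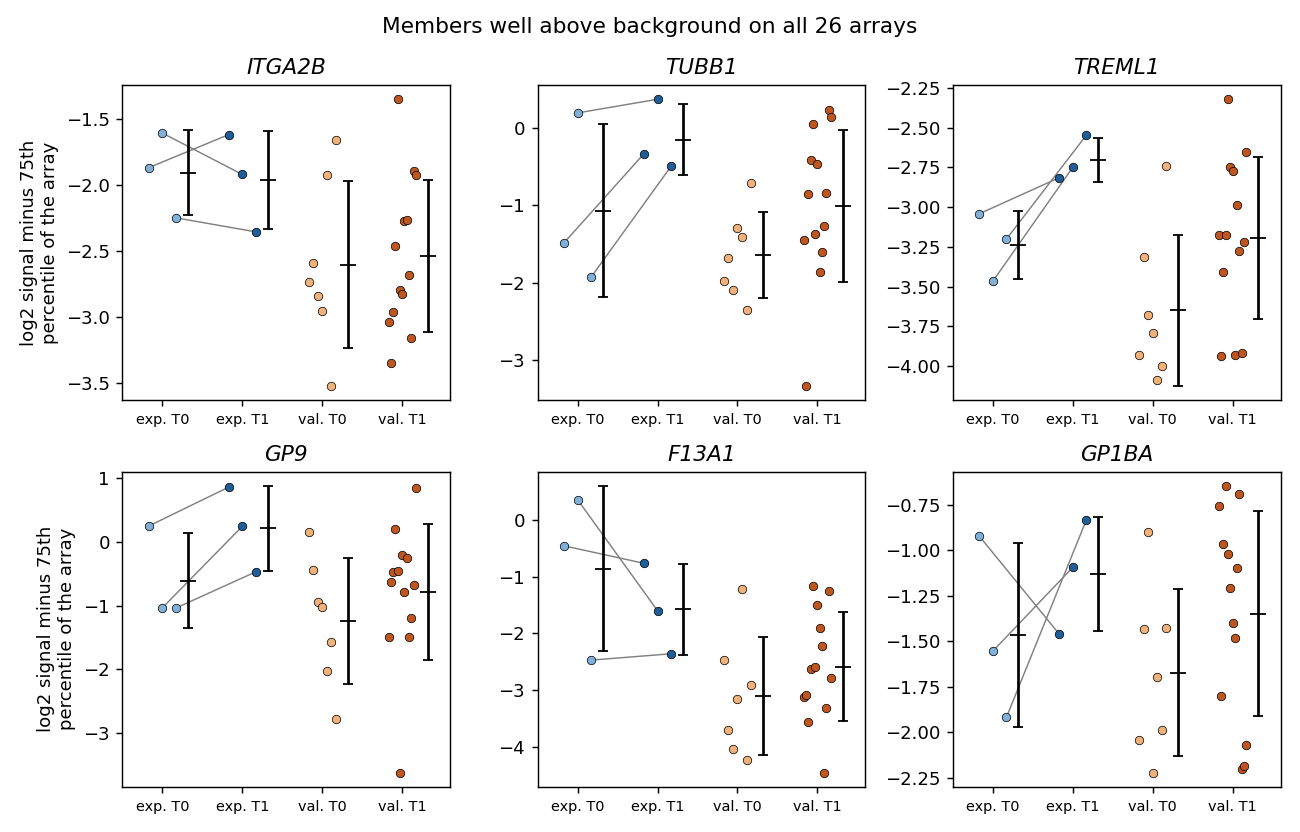
Levels of the 6 measurable members (log2 processed signal minus the 75th percentile of the array, vertical axis) in the 4 groups, with 1 point a horse and the mean with its SD beside them. Lines join the T0 and T1 samples of the 3 experimental horses. The T0 and T1 points overlap in all panels but that of *TREML1* in the experimental set.

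**Figure D2:**
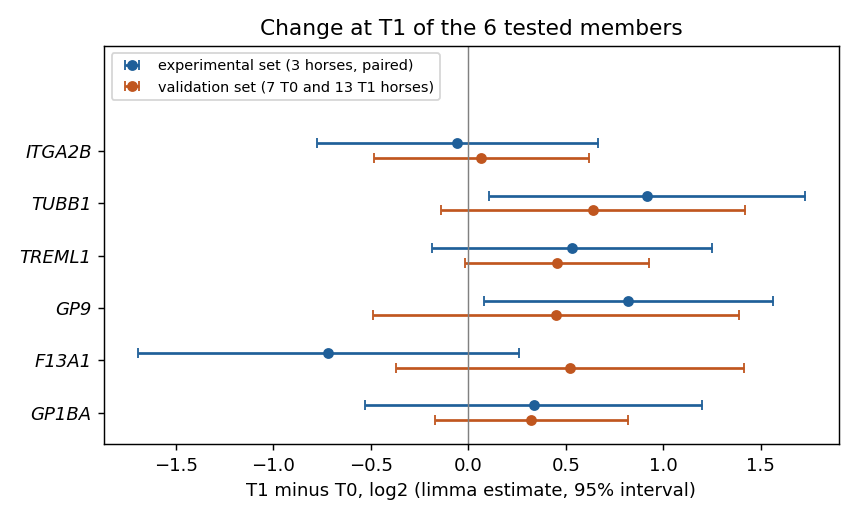
T1 minus T0 (log2, horizontal axis) of the 6 members as limma estimated it, with the 95% interval, in the experimental and the validation set. The intervals of *TUBB1* and *GP9* in the experimental set lie above 0 before adjustment over all gene names, and every interval of the validation set includes 0.

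The direction was the same in both sets for *TUBB1*, *TREML1*, *GP9* and *GP1BA*, and *F13A1* (-0.72 and 0.52) and *ITGA2B* (-0.06 and 0.07) were lower at T1 in the experimental and higher in the validation set. The difference between the sets was tested directly. For *F13A1* it was -1.24 (SE 0.93, interval -3.15 to 0.67, limma, unadjusted p = 0.195, adjusted p = 1). None of the 6 members passed and neither did any of the 17889 gene names tested (0.0%), of which 99 (0.553%) had an unadjusted p under 0.05 in limma. *TUBB1* differed by 0.28 (interval -1.33 to 1.89) and *GP9* by 0.37 (interval -1.47 to 2.21) between the sets, which shows how wide the room for a difference was.

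Arrays were scanned on 8 days, and on 5 of them validation arrays of both time points were present. *TUBB1* was higher at T1 on 4 of the 5 days (-0.18 to 1.94), *TREML1* on 4 (-0.06 to 1.31), *GP1BA* on 4 (-0.07 to 0.998), *F13A1* on 3 (-0.50 to 1.87), *GP9* on 3 (-2.01 to 1.83) and *ITGA2B* on 2 (-0.90 to 1.36). Within a day most of these differences rest on 1 or 2 horses a group. With the scan day as a further term, the difference of *TREML1* in the validation set was 0.60 (limma, adjusted p = 0.0540) and that of *TUBB1* 0.88 (adjusted p = 0.160).

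The spread between horses after the ride was wide for 3 of the genes. Over the 13 validation horses at T1, the SD was 1.07 for *GP9*, 0.98 for *TUBB1* and 0.96 for *F13A1*, larger than that of 98.9%, 97.8% and 97.6% of the 13477 gene names well above background on all of these arrays, whose median SD was 0.37. For *ITGA2B* (0.58), *GP1BA* (0.56) and *TREML1* (0.51) the share of gene names with a smaller SD was 80.6%, 79.2% and 73.5%. As folds, the brightest of the 13 horses had 22.2 times the signal of the dimmest for *GP9*, 11.8 times for *TUBB1* and 3.06 times for *TREML1*. The first was 5.08 times without horse 19 (SD 0.68, above 88.4% of gene names) and the second 4.25 times without horse 4 (SD 0.72, above 89.8%), and the SD of *F13A1* was 0.82 without horse 44 (above 93.5%). At T0, over 7 horses, *F13A1* (SD 1.04) and *GP9* (0.99) were again among the most variable gene names, above 98.1% and 97.5% of 15425, with SDs of 0.68 without horse 29 and 0.78 without horse 47 (above 88.0% and 94.3%).

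Single horses stood at the edges for several members. Validation horse 47 at T0 had the highest *ITGA2B* (-1.66), *TUBB1* (-0.72) and *TREML1* (-2.74) of the 7 horses and the lowest *GP9* (-2.78). Horse 4 at T1 had the lowest *ITGA2B*, *TUBB1* and *TREML1* of the 13, whereas its *GP9* (-0.63) was the median. Horse 17 at T1 had the highest *ITGA2B*, *TREML1* and *F13A1*. In horse 17 *GP9* was at -0.46, above its median of -0.63.

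Where a gene had several probes, these showed how far their readings matched. Across the 16 T1 arrays, the 5 probes of *TUBB1* correlated with each other between 0.984 and 0.999, and the 3 probes of *F13A1* between 0.845 and 0.923, although the dimmest of these stood well above background on 18 of the 26 arrays. The T1 minus T0 values of the other *TUBB1* probes were 0.59 to 0.71 in the validation set, beside 0.64 for the brightest. The order of the horses in *TUBB1* thus hardly depended on which of these probes was read. Because they share 50 bases, their likeness cannot show how well they measure the gene itself. The T1 minus T0 value of *F13A1* did depend on it. Its other probes gave 0.48 and, for the dimmest, 0.21 in the validation set, beside 0.52 for the brightest. In the experimental set they gave -0.52 and, for the dimmest, -1.09, beside -0.72.

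For *PPBP* and *ITGB3*, which platelets are known to hold in large amounts, the probes did not give such matching readings. The brightest *PPBP* probe stood well above background on 2 arrays, experimental horse 41 at T1 (-4.79) and validation horse 46 at T1 (-5.24), and ran between -8.11 and -5.68 on the others. In horse 41 the fourth probe was above background too (-5.67), and other probes were in validation horses 8 (-4.34) and 62 (-4.48), so that 4 of 16 arrays at T1 and 0 of 10 at T0 had such a probe. Its 5 probes, which share the 56 bases in capitals above, correlated between -0.08 and 0.68 (median 0.30) across the T1 arrays. The brightest *ITGB3* probe stood well above background on 6 arrays, up to -2.18 in validation horse 21 at T1, where the other 4 probes, shifted by 1 to 4 bases, read between -7.47 and -7.10. On 4 of the 6, all at T0, the third of the 5 probes did so as well, as in validation horse 18 (-5.29 and -5.995) and experimental horse 32 (-3.50 and -6.47). Over all 5 probes, 13 of the 26 arrays had at least 1 well above background, 7 of 10 at T0 and 6 of 16 at T1. In validation horse 46 at T1 it was the third of the 5 probes that was bright (-2.90), and the other 4 lay between -7.88 and -6.64. Its probes correlated between -0.19 and 0.43 (median 0.10). The single *GP6* probe lay between -8.69 and -6.03 and never stood well above background. No level of these genes was read from probes that differed this much, and values at background say only that these probes did not measure them.

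**Figure D3:**
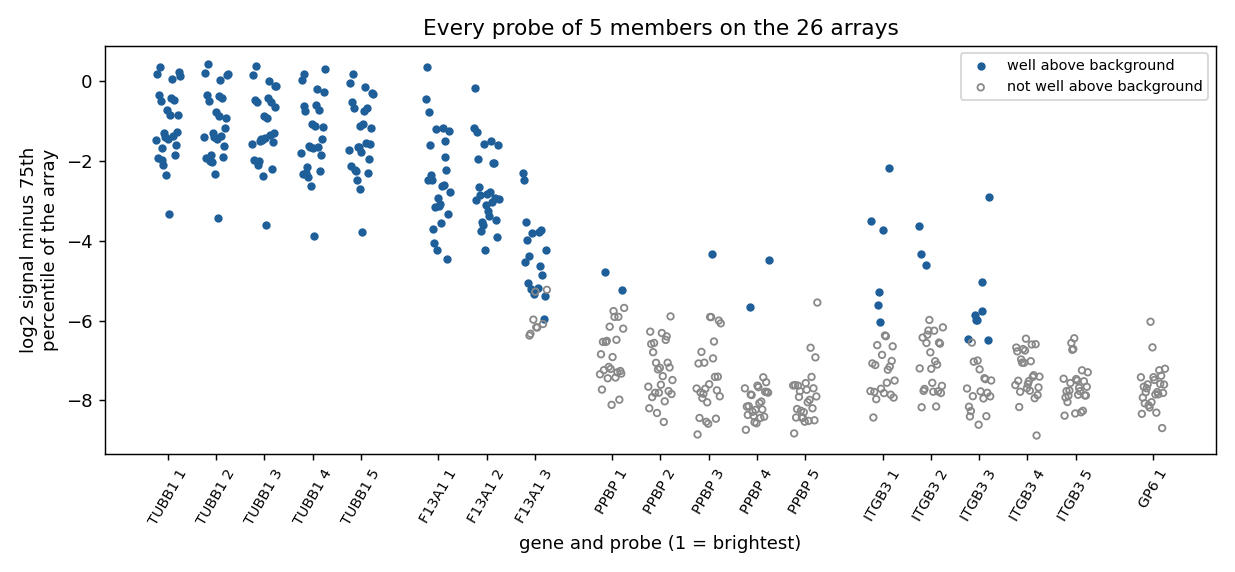
Level of every probe (log2 processed signal minus the 75th percentile of the array, vertical axis) of *TUBB1*, *F13A1*, *PPBP*, *ITGB3* and *GP6* on the 26 arrays, with filled points where the probe was well above background. The 5 *TUBB1* probes lie together, whereas those of *ITGB3* lie apart on several arrays, up to -2.18 for 1 probe.

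Whether the platelet genes varied together between horses was examined across the 16 T1 arrays (13 validation and 3 experimental horses), with Pearson's r, Spearman's rho, a two-sided permutation test of 100000 resamples and adjustment over 16762 gene names for each member. The 15 pairs of the 6 members ran from -0.21 to 0.71 with a median of 0.41, and 11 were positive. The 10 pairs without *GP1BA* were all positive, from 0.18 to 0.71 (median 0.47). The 5 pairs with *GP1BA* ran from -0.21 to 0.33, and 1 was positive. The genes of a pair were read on the same arrays from the same mixed blood, and the values are given as a description. In the alternative with scan day means removed, arrays were shuffled only within a scan day. That leaves few distinct orders, so even the smallest p it can give is large for adjustment over so many gene names. From a lack of passing gene names in that alternative no conclusion is drawn.

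*ITGA2B* and *F13A1* were the closest pair (r = 0.71, rho = 0.75). *ITGA2B* with *TUBB1* followed (r = 0.67, rho = 0.64, permutation p = 0.00349, adjusted p = 0.0590 among the gene names set against *ITGA2B* and 0.9997 among those set against *TUBB1*). Then came *TUBB1* with *TREML1* (r = 0.64, rho = 0.56, permutation p = 0.00655, adjusted p = 0.998 against *TREML1* and 0.9997 against *TUBB1*) and *ITGA2B* with *TREML1* (r = 0.62, rho = 0.55, permutation p = 0.0113, adjusted p = 0.0874 against *ITGA2B* and 0.998 against *TREML1*). The pair of *ITGA2B* and *F13A1* had a permutation p of 0.00199 and an adjusted p of 0.0497 (rho: 0.0227) among the gene names set against *ITGA2B*, of which 4.03% passed, and an adjusted p of 0.235 among those set against *F13A1*, of which 0.0% passed (2041 of 16762 with an unadjusted permutation p under 0.05). Against *ITGA2B*, its r was 0.63 in the 13 validation horses alone (adjusted permutation p = 0.218), 0.67 without the 2 arrays farthest from the median of *ITGA2B* (adjusted p = 0.0629) and 0.76 with the scan day means removed (adjusted p = 0.213), and the adjusted p was 0.0681 without horse 34, 0.0679 with quantile normalization and 0.0325 with the series values. Among the members *GP9* was nearest *ITGA2B* by r (r = 0.49, rho = 0.52, permutation p = 0.0493, adjusted p = 0.619 against *GP9* and 0.187 against *ITGA2B*) and *TUBB1* by rho (r = 0.41, rho = 0.59, permutation p of rho = 0.0199, adjusted p = 0.804 against *GP9*).

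The 10 positive signs without *GP1BA* were also found in the 13 validation horses alone (0.06 to 0.64), without horse 34 (0.18 to 0.71), with quantile normalization (0.14 to 0.72) and with scan day means removed (0.38 to 0.82). At rest they were not all positive: across the 10 T0 arrays 7 of the 10 pairs were, from -0.27 to 0.78, and the 3 negative pairs were those of *GP9* with *TUBB1*, *ITGA2B* and *TREML1*. *ITGA2B* with *F13A1* was at 0.78 there too. The 10 T0 arrays pool 3 experimental and 7 validation horses, whose means at T0 lay apart for both genes. The experimental and validation means were -1.91 and -2.60 for *ITGA2B* and -0.86 and -3.10 for *F13A1*. No r was taken within a set at T0, and the part of this gap in the pooled r was not tested. *GP1BA*, the exception at T1, was positive with all 5 other members at T0 (0.10 to 0.48). The comparison at T0 was added after the T1 values had been seen.

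**Figure D4:**
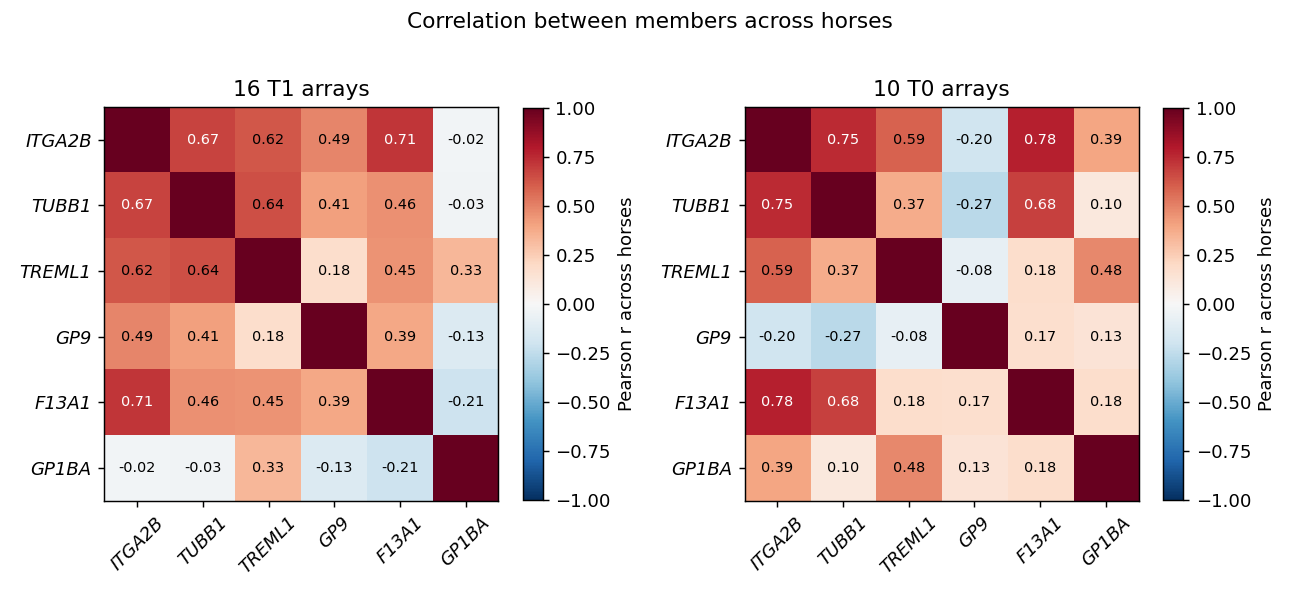
Pearson's r between the 6 measurable members across the 16 T1 arrays and across the 10 T0 arrays, with the colour scale from -1 to 1. At T1 the 10 pairs without *GP1BA* are positive, up to 0.71 for *ITGA2B* with *F13A1*, and at T0 *GP9* is negative with *TUBB1*, *ITGA2B* and *TREML1*.

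The genes nearest to each member by r across the T1 arrays, 3 a member, were mostly not platelet genes. For *TUBB1* the nearest was *VWF*, the adhesive protein of platelet granules and vessel walls (r = 0.85, rho = 0.81, permutation p = 8e-05, adjusted p = 0.9997), followed by the polyamine oxidase *SMOX* (r = 0.78) and *ZNF618* (r = 0.75). No gene name passed for *TUBB1* (0.0%, 580 of 16762 at an unadjusted permutation p under 0.05). Horse 4 was the lowest for both *TUBB1* (-3.33) and *VWF* (-3.50), and without the 2 arrays farthest from the median the r of *VWF* was 0.64 and that of *ZNF618* 0.44. Across the 10 T0 arrays it was 0.43 for *VWF*, 0.70 for *SMOX* and -0.52 for *ZNF618*. *VWF* was at 0.68 with *TREML1*, 0.64 with *ITGA2B*, 0.55 with *F13A1*, 0.31 with *GP9* and 0.12 with *GP1BA*. Its T1 minus T0 difference was 0.68 in the experimental set (limma, adjusted p = 0.184) and 0.48 in the validation set (adjusted p = 0.218), neither of which passed.

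For *ITGA2B* the nearest were *TUBB2A*, another beta tubulin (r = 0.90, rho = 0.87, adjusted permutation p = 0.0305), *RAC2*, a small GTPase of blood cells (r = 0.90, rho = 0.85), and *GLCCI1* (r = 0.88, rho = 0.89). Of 16762 gene names 675 passed for *ITGA2B* (473 with a positive r), and without the array of horse 34 none did (4173 at an unadjusted permutation p under 0.05), with the smallest adjusted p at *TUBB2A* then 0.0516. None passed with quantile normalization, in the 13 validation horses alone or with scan day means removed either. In the last of these the few distinct shuffles make passing unlikely, as said above. The r of *TUBB2A* was 0.90 without horse 34, 0.88 in the 13 validation horses alone and 0.91 with scan day means removed. With quantile normalization it was 0.87, that of *RAC2* 0.78 and that of *GLCCI1* 0.83. By contrast, 1848 gene names passed without the 2 arrays farthest from the median, 906 with the series values and 12.1% by rho. Among the further platelet lists, 7 of the 70 genes set against *ITGA2B* passed (10%, beside 4.03% of all gene names): *TLN1* (talin, r = 0.82), *NFE2* (0.76), *ETV6* (0.76), *STXBP2* (0.76), *STXBP5* (0.75), *VCL* (vinculin, 0.74) and *FLNA* (filamin A, 0.73), all positive. The B cell genes *BLK* (0.74) and *MS4A1* (0.72) and the neutrophil gene *CSF3R* (0.74) passed as well, from lists in which 7 of 8 B cell markers (median r 0.44) and 5 of 10 neutrophil markers (median r -0.02) were positive with *ITGA2B*.

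*GP1BA* had the closest neighbours of all members and its nearest were not platelet genes: *PMEL17* (r = 0.98, rho = 0.98), a protein of pigment cells, *LINGO4* (r = 0.98, rho = 0.96) and *SALL2* (r = 0.98, rho = 0.97), each with an adjusted permutation p of 0.000564, from the smallest p these permutations can give. Its 20 nearest gene names lay between 0.956 and 0.983, and 0 of them was in the platelet lists. None of 16762 gene names passed with scan day means removed, where the few distinct shuffles make passing unlikely. Without that removal 1896 (11.3%) passed, 1867 of them positive. Among them were 6 of the 70 platelet list genes set against it (8.57%), *UNC13D* (r = 0.87), *PDLIM1* (0.84), *PTGIR* (0.84), *F2RL2* (0.77), *SLC35D3* (0.76) and *VEGFC* (0.75), and of the markers of other cells *MME* (neutrophils, 0.91), *TNFRSF13C* (B cells, 0.84) and *CD6* (T cells, 0.71). The count was 887 with quantile normalization and 786 with the series values. With scan day means removed the r was 0.90 for *PMEL17* (adjusted permutation p = 0.371), 0.80 for *LINGO4* and 0.81 for *SALL2*, and across the 10 T0 arrays it was 0.93, 0.70 (adjusted p = 0.271) and 0.91. The uncharacterized entry behind this probe was matched to *GP1BA* through its gene number alone. Whether the probe measures *GP1BA* was not tested, and the values given here under that name depend on the match.

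For *TREML1* the nearest were *DUSP3*, a phosphatase (r = 0.83, rho = 0.76), *NXNL2* (r = 0.82) and the insulin receptor substrate *IRS2* (r = 0.82, rho = 0.79). *IRS2* itself was higher at T1 by 2.32 in the validation set (limma, adjusted p = 5.56e-05). Validation horse 47, without which *TREML1* passed, was at 1.83 for *IRS2* at T0. This lay within the validation range at T1 (0.68 to 1.90), and the next highest T0 horse was at -0.44. Its *GLCCI1* at T0 (2.63) also lay within the validation range at T1 (1.11 to 3.57), as did that of validation horse 29 at T0 (1.12). Its *GP9* (-2.78) was the lowest of the validation horses at T0. The other named neighbours were not compared in this way, and what set horse 47 apart was not tested. For *F13A1* the nearest were *ARHGAP9* (r = 0.80, rho = 0.83), the kinase *GSK3B* (r = 0.79) and *MMP9*, a gelatinase of neutrophil granules (r = 0.79, rho = 0.79). For *GP9* they were the receptor *ACVRL1* (r = 0.82, rho = 0.59), *CUL4A* (r = 0.76) and *MR1* (r = 0.74), and at T0 these were 0.05, -0.71 and 0.62. Without the 2 arrays farthest from the median the r of *ACVRL1* was 0.62. No gene name passed for any of these 3 members (0.0%), and at an unadjusted permutation p under 0.05 there were 698 for *TREML1*, 2041 for *F13A1* and 1335 for *GP9*. With *F13A1*, 8 of the 15 monocyte markers had a positive r (median 0.04, beside -0.02 over all gene names), the highest for *CD163* (r = 0.61, rho = 0.59, permutation p = 0.0124, adjusted p = 0.283), *MARCO* (r = 0.48) and *FCN1* (r = 0.46), and none passed after adjustment.

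**Figure D5:**
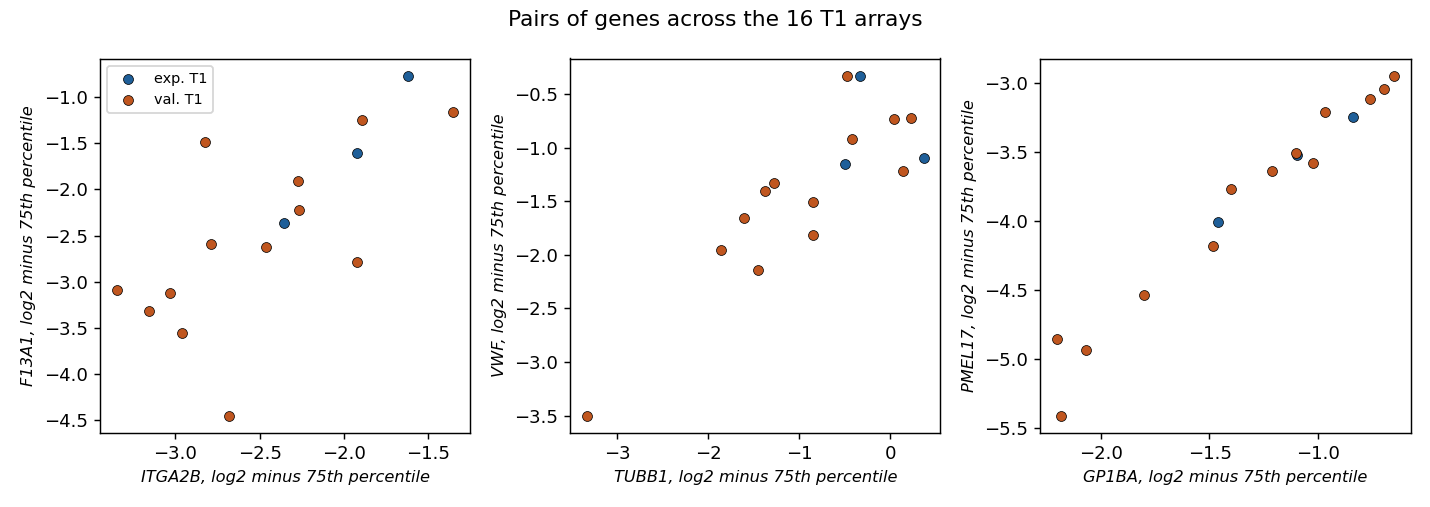
Levels (log2 processed signal minus the 75th percentile of the array, both axes) of *ITGA2B* against *F13A1*, *TUBB1* against *VWF* and *GP1BA* against *PMEL17* on the 16 T1 arrays, with experimental and validation horses marked. The r is 0.71, 0.85 and 0.98, and in the middle panel horse 4 lies lowest on both axes.

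Beside the 9 members, 106 further genes of platelet biology were set out in 6 lists, of which 100 were on the array. In the validation set 74 could be tested, and 22 were higher and 11 lower at T1 (44.6%, beside 44.2% of all gene names). In the experimental set 78 could be tested, and 9 were higher and 2 lower (14.1%, beside 10.1%). Of the lower genes, *JAM3* (validation set) and *GUCY1A3* (both sets) were mostly at background at T1 and passed the filter through T0, and without them 9 were lower in the validation set and 1 in the experimental set. When a horse was left out, the 11 calls of the experimental set became 2 (horse 2 out), 5 (horse 32 out) or 16 (horse 41 out), and the share over all gene names moved with them, as given above. In the validation set the share of calls in either direction thus lay near that of all gene names. By direction it differed: 22 of the 74 were higher and 11 lower, whereas 20.3% of all gene names were higher and 23.9% lower. This lean was not tested. The genes that moved are given by their roles, and the same 2 shares over all gene names stand beside each validation count.

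Among cargo of platelet granules, 4 of 11 tested genes were higher in the validation set and none was lower. *THBS1*, thrombospondin 1, ran from -3.20 through -2.30 to -0.91 at T0 and from -0.72 through -0.16 to 0.34 at T1, without overlap, as was so for 2.21% of all gene names. It rose by 2.02 (SE 0.23, limma, adjusted p = 3.33e-06), and by 2.34 (SE 0.34, adjusted p = 0.00697) in the experimental set, where it went from between -2.83 and -2.51 to between -0.75 and 0.11. *SELP*, P-selectin, rose by 0.9995 (limma, adjusted p = 0.00190) and by 1.50 in the experimental set (adjusted p = 0.0299). *SRGN*, the granule proteoglycan serglycin of platelets and leukocytes, rose by 0.97 (adjusted p = 0.000143) and by 1.21 (adjusted p = 0.0443). *CLU*, clusterin, named here after its value was seen, rose by 3.78 (SE 0.92, adjusted p = 0.00229) and by 4.75 (adjusted p = 0.00639), and its validation values ran from -3.75 to 4.18 at T1. *SPARC* (-0.49, adjusted p = 0.200) and *NRGN* (0.05, adjusted p = 0.918), which platelets also hold, did not pass.

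Among agonist receptors and signalling, 2 of 14 tested genes were higher and 4 lower, and with quantile normalization 5 were higher and 3 lower. *RGS18*, a regulator of G protein signalling of platelets and myeloid cells, ran from 0.46 through 1.04 to 2.62 at T0 and from 2.80 through 3.39 to 3.98 at T1, again without overlap. It rose by 2.17 (SE 0.23, limma, adjusted p = 1.85e-06) and by 2.11 in the experimental set (adjusted p = 0.00824). *TBXAS1*, thromboxane synthase, rose by 0.66 (adjusted p = 0.000944). *RGS10* fell by 0.73 (adjusted p = 0.00229) and the G protein subunit *GNAQ* fell by 0.82 (adjusted p = 0.0286). These 3 did not pass in the experimental set, with 0.79 for *TBXAS1* (adjusted p = 0.175), -1.04 for *RGS10* (adjusted p = 0.0730) and -0.72 for *GNAQ* (adjusted p = 0.161). *GUCY1A3*, a subunit of the nitric oxide receptor, is among the 4 but had a signal above background in 7 of 7 horses at T0 and 3 of 13 at T1, so that its values (-5.90 through -4.93 to -4.23 at T0 and -7.69 through -6.04 to -5.40 at T1) are given as a description. The ADP receptor *P2RY12* (0.31, adjusted p = 0.190) and the inhibitory receptor *MPIG6B* (0.23, adjusted p = 0.204) did not pass, and *P2RY12* passed with quantile normalization (0.42, adjusted p = 0.0410).

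Among adhesion receptors, 3 of 10 tested genes were higher and 5 lower. The tetraspanin *CD9* rose by 1.36 (limma, adjusted p = 0.00117) and by 1.31 in the experimental set (adjusted p = 0.0386). *FCER1G*, the signalling chain of glycoprotein VI and of leukocyte Fc receptors, rose by 0.77 (adjusted p = 0.00539), and *CLEC1B*, the podoplanin receptor, by 1.06 (adjusted p = 0.00937). The *CLEC1B* signal was dim, above background in 5 of 7 horses at T0 and 12 of 13 at T1, with T0 values down to -6.815. *CD226*, which T and NK cells also carry, fell by 1.48 (adjusted p = 3.63e-05) and by 1.26 in the experimental set (adjusted p = 0.0397), and *PECAM1* fell by 1.03 (adjusted p = 0.00292). In the experimental set *FCER1G* (0.99, adjusted p = 0.0933), *CLEC1B* (0.92, adjusted p = 0.191) and *PECAM1* (-0.64, adjusted p = 0.225) did not pass. *JAM3*, a junctional adhesion molecule, is among the 5 but had a signal above background in 7 of 7 horses at T0 and 2 of 13 at T1. Its values ran from -5.71 through -5.47 to -4.81 at T0 and from -7.54 through -6.66 to -5.56 at T1.

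Among cytoskeleton and integrin activation, 6 of 17 tested genes were higher and none lower, and with quantile normalization 3 were higher and 2 lower. *RAP1B*, the small GTPase that switches platelet integrins on, rose by 1.33 (SE 0.16, limma, adjusted p = 5.61e-06) and by 1.26 in the experimental set (adjusted p = 0.0394). *VCL*, vinculin, rose by 0.88 (adjusted p = 0.00942). *BIN2* rose by 0.38 (adjusted p = 0.00621), a call lost with quantile normalization (0.19, adjusted p = 0.140). Neither passed in the experimental set, with 1.13 for *VCL* (adjusted p = 0.116) and 0.59 for *BIN2* (adjusted p = 0.269). Actin crosslinker *FLNA* (0.38, adjusted p = 0.250) and the tubulin *TUBA4A* (0.43, adjusted p = 0.401) did not pass.

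Among transcription factors of megakaryocytes and the thrombopoietin receptor, 3 of 8 tested genes were higher and 1 lower. *NFE2*, a factor needed for platelet release, rose by 1.38 (SE 0.36, limma, adjusted p = 0.00366) and by 1.61 in the experimental set (adjusted p = 0.0358), and its partner *MAFG* by 1.49 (adjusted p = 0.000279) and 1.72 (adjusted p = 0.0402). *FLI1* rose by 0.79 (adjusted p = 0.000916) and *LMO2* fell by 1.01 (adjusted p = 0.00676), and neither passed in the experimental set (0.88, adjusted p = 0.110, and -0.74, adjusted p = 0.210). *RUNX1* (0.11, adjusted p = 0.431) and *GFI1B* (-0.60, adjusted p = 0.0896) did not pass. Neutrophils and other leukocytes also use several of these factors.

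Among genes of granule formation and release, 4 of 14 tested genes were higher and 1 lower. *AP3B1* rose by 0.89 (limma, adjusted p = 0.000180), *STXBP5* by 1.06 (adjusted p = 0.00560) and *STXBP2* by 0.66 (adjusted p = 0.00679), and *HPS1* fell by 0.78 (adjusted p = 0.0151). In the experimental set none of the 15 tested genes of this list passed, with 1.03 for *AP3B1* (adjusted p = 0.0661) and 1.32 for *STXBP5* (adjusted p = 0.0578). Many genes of the 6 lists are also used by leukocytes, and the part of the cell mix in their changes was not tested.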

How the data were processed

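Whole-blood mRNA was measured on 26 arrays of 1 colour. The authors' scanner files hold an intensity per spot, made by Feature Extraction 10.7.3.1, which corrected background without normalizing between arrays. Deposited as well were log2 values of the whole series, which rank like background-subtracted signals with nearly equal quantiles between arrays, and which served as an alternative. Of 45220 spots an array, control spots and, over all arrays, 386 outlier spots were left out, replicate spots were averaged, the array's 75th percentile (8.74 to 9.76) was subtracted from log2 intensities, and the brightest probe stood for a gene name. Gene names were matched to symbols by the array's names, the study's additional files or RefSeq gene numbers. Set, animal and time point were taken from the labels, and each horse is a separate animal.

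Gene names well above background on at least 3 of 6 experimental, or 7 validation (or all 26), arrays were tested in R 4.3.3 with limma 3.58.1 and statmod 1.5.0, and adjusted by Benjamini and Hochberg at 0.05. The horse was a fixed block in the experimental set, whose labels give both samples to the same animal. The deviations of a horse's arrays from their group means correlated with r of -0.01 (horse 2), 0.21 (horse 32) and 0.19 (horse 41). The sets were compared in a single fit with the horse as a random block (consensus correlation -0.06). Correlations used gene names well above background on at least 8 T1 arrays (5 at T0), with numpy 2.4.6, pandas 2.3.3 and scipy 1.17.1 under Python 3.11.15 (plots: matplotlib 3.10.9). The scripts were tested on simulated data. The number of arrays limits the precision.

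Named genes are the 9 members, up to 3 symbols of smallest adjusted p per direction and platelet list in the validation set, and the 3 symbols nearest each member. Outside this rule, *CLU*, the list genes named as not passing in the validation set (*SPARC*, *NRGN*, *P2RY12*, *MPIG6B*, *FLNA*, *TUBA4A*, *RUNX1* and *GFI1B*) and the list genes and cell markers named for a correlation were chosen after their values were seen. The members and lists were chosen with earlier results of these data known. Alternatives were normexp (offset 50), quantile normalization, series values, other filters, the mean of probes, no replicate block, a single fit, scan day, slide or sex, and horses left out.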

Additional observations from a re-analysis of the deposited data

How the results depend on the processing

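Under the alternatives, 116 counts of calls stayed within 1.5 times the reported count and 18 did not, and for single members and pairs 390 values stayed (in direction and side of the threshold where tested), 23 moved (counts by over 1.5 times, untested differences within a scan day by over 1 SD of the T1 horses), 19 turned and 3 gained a call. Gene names called in the experimental set numbered 46 with no filter, 2816 with the filter on every array, 2931 in a single fit of 26 arrays and 239 to 3169 with a horse left out. Genes of the platelet lists called there numbered 0 with no filter and 2 to 16 with a horse left out. No replicate block, that is, without the pairing by horse, left 1785 gene names and changed no call of a member. Members called in the validation set numbered 1 with quantile normalization (*TREML1*) and 0 to 1 with a horse left out (*TREML1* without horse 47 at T0, *TUBB1* without horse 4 at T1). The pair past the threshold at T1 (1 of the ordered pairs) became 0 in the 13 validation arrays alone, without horse 34, without the 2 arrays farthest for *ITGA2B*, with quantile normalization, with scan day means removed and at T0. With scan day means removed, the few distinct shuffles make passing unlikely. The direction of *ITGA2B* in the experimental set turned with normexp (0.053), quantile normalization (0.01), the series values (0.051) and a horse left out (-0.21 to 0.072), and that of *GP1BA* with a horse left out (-0.039 to 0.77). With the scan day as a term, the validation values of *ITGA2B* (-0.004) and *GP9* (-0.011) turned, and that of *ITGA2B* ran from -0.086 to 0.224 with a validation horse left out. Correlations between members that turned were those of *GP1BA* with *F13A1* (0.18 at T0), *GP9* (0.033 with scan day means removed, 0.13 at T0), *ITGA2B* (0.39 at T0), *TREML1* (-0.33 with scan day means removed) and *TUBB1* (0.16 without the 2 arrays farthest for *GP1BA* but -0.39 without those for *TUBB1*, 0.10 at T0). At T0 those of *GP9* with *ITGA2B* (-0.20), *TREML1* (-0.08) and *TUBB1* (-0.27) turned as well. Of the 18 named neighbours, 2 turned at T0, *ZNF618* with *TUBB1* (-0.52) and *CUL4A* with *GP9* (-0.71), and none in the other alternatives. The cause was not tested. Scan day and slide as terms in the experimental set could not be fitted. Signal at background limits *PPBP*, *ITGB3* and *GP6*.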
